A study of Mus musculus with 2 samples.

Results

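The ISG15 conjugation system was followed through 5 genes, Isg15, Uba7, Ube2l6, Herc6 and Usp18, taken by name from a deposited table of 54532 mouse genes. ISG15 is a ubiquitin-like protein that type I interferon induces. An activating enzyme (E1), a conjugating enzyme (E2) and a ligase (E3) attach it in turn to target proteins, and a protease removes it. In the mouse these steps are run by the products of Uba7, Ube2l6 and Herc6, and of Usp18. USP18 also binds the type I interferon receptor and dampens its signalling, so the system contains a feedback regulator of the pathway that induces it.

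The samples were cultures of CT26, a mouse colon carcinoma line. One culture had received mouse Oct4 together with human SOX2 by lentivirus, and the submitters call it dedifferentiated. The control culture, labelled wild type, carried lentivirus with the empty vector. Both were grown for 4 days in medium with serum before total RNA was sequenced. The sources used here give neither the vector's promoter nor a selection step. Each group held 1 library, so every difference below is between 2 libraries, without replicates. Reads assigned to genes numbered 32262408 for the control and 31521115 for Oct4 and SOX2. Where 2 values follow each other below, the control comes first. Pou5f1, the gene for Oct4, had 0 reads in the control and 12406 in the Oct4 and SOX2 library. Mouse Sox2 had 929 reads in the control and 1525 in the other library, 1.64-fold higher (1.52 to 1.79 by counting error). The control thus already held Sox2 reads, and because the added SOX2 is human and the table is of mouse genes, this checks the second factor only weakly. Of 11 epithelial and intestinal markers only Krt18 and Krt20 reached 1 FPKM (fragments per kilobase of gene length at a common depth) in either library. Cdh1 and Cdx1 had 0 reads in both, and Epcam had 1 and 2 reads. Of 9 fibroblast and mesenchymal markers 6 were measured, 3 with a higher and 3 with a lower level under Oct4 and SOX2. Among them Vim was at 599 and 966 FPKM, Col1a2 at 185 and 306, Col1a1 at 62.1 and 39.99, and Pdgfrb at 14.1 and 4.93. Their part in the results was not tested. Of 14 leukocyte markers 2 were measured, Cd14 and Cd68, and the summed level of the list was 26.5 FPKM in the first library named, the control, and 20.96 FPKM in the second. The pan-leukocyte gene Ptprc had 2 reads in each library, and Cd3e and Adgre1 had 0.

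Promoter sequence is shown first because the letters that interferon-activated factors bind are known for genes of this kind. The interferon-stimulated response element is bound by a complex that includes STAT2 and IRF9, and its core was searched on both strands as GAAA, any 2 bases, and GAAA again. The windows ran from 250 bases before to 50 after each RefSeq start on GRCm38.p6, and 4 of the 5 members had one: Isg15, Uba7, Ube2l6 and Herc6. Isg15 was the member with the core, in 3 overlapping copies between bases -78 and -57 from its start. The 150 bases before the starts of Isg15 (chr4:156200819-156200968, minus strand) and Ube2l6 (chr2:84798678-84798827, plus strand) are given, the first with the core and the second without it. Only these windows were searched, so a core elsewhere would be missed. Capitals mark the matches.
Isg15: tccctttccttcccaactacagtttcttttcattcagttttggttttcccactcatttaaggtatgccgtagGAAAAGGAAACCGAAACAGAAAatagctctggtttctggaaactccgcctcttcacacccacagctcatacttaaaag
Ube2l6: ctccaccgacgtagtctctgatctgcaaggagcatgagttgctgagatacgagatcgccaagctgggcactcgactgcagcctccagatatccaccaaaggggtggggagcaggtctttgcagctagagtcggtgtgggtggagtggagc

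The core was present in 3.44% of 32851 such windows. A shorter form, AAANNGAAA, chosen after the sequences were seen and contained in every full core, was present in 10.6% of them. It matched once in the Uba7 window, on the minus strand between bases -27 and -19. That stretch is printed below from chr9:107975529-107975558, plus strand. It lies before the RefSeq start at 107975567 but after the start of the deposited gene at 107975505.
Uba7: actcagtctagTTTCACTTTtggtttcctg

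No letters of either form were in the windows of Ube2l6 and Herc6. Neither the STAT site TTCNNNGAA (8.30% of windows) nor the octamer ATGCAAAT that POU factors such as Oct4 bind (1.74%) was in any of the 4 windows.

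All 5 members were lower in the Oct4 and SOX2 library. On the log2 scale of FPKM + 1 their ratios ran from -1.67 for Usp18 to -0.61 for Herc6, with a median of -1.40. The median over the 12401 genes with at least 1 FPKM in a library, called measured here, was -0.01 (SD 0.47 across genes), and 51.7% of them had a ratio below 0. Isg15, Ube2l6 and Usp18 were at least 2-fold lower on that scale, against 1.85% of all measured genes and 1.07% of the measured protein-coding ones. No member was at least 2-fold higher, against 2.42% and 1.39%. In bulk RNA, fewer expressing cells and less RNA per cell cannot be told apart. The folds that follow are plain FPKM ratios with an exact 95% interval for counting error, while log2 ratios, medians and counts of genes at or past 2-fold are on the FPKM + 1 scale.

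**Figure D1:**
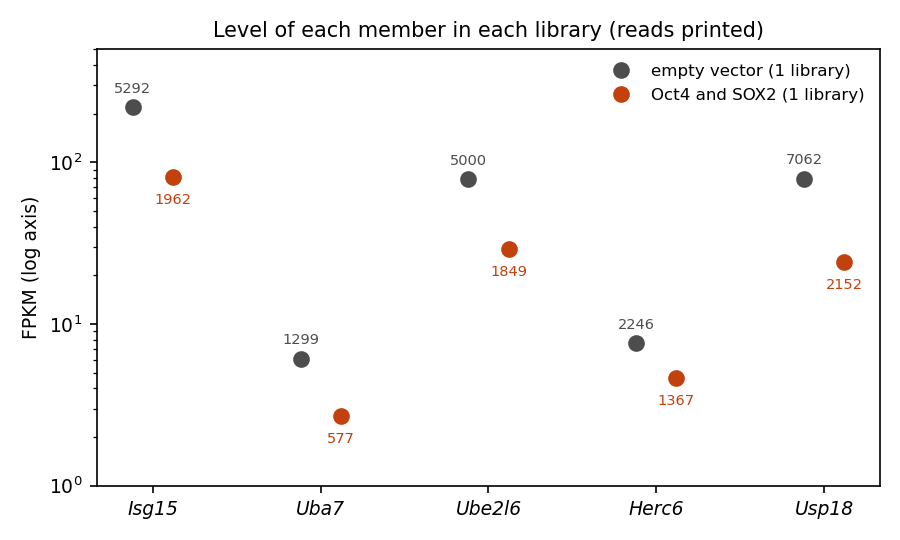
Level of each member in FPKM on a log axis, with 1 point per library and its read number printed. In each of the 5 genes the Oct4 and SOX2 point lies below the control point, from 1.64-fold lower for Herc6 to 3.28-fold lower for Usp18.

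The modifier itself was the most abundant member. Isg15 (ENSMUSG00000035692), a gene of 2 exons and 161 codons on the minus strand of chromosome 4 from 156199424 to 156200818 (GRCm38), was at 219 FPKM under the empty vector and 81.5 FPKM under Oct4 and SOX2. These rested on 5292 and 1962 reads. The level was 2.69-fold lower (2.56 to 2.84), and Isg15 moved from rank 172 to rank 541 among measured genes by level. Isg15 made up 56.1% of the summed FPKM of the 5 members under the empty vector and 57.3% under Oct4 and SOX2, and the sum itself was 391 and 142 FPKM.

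Uba7, the E1 enzyme that charges ISG15, was the least abundant. Uba7 (ENSMUSG00000032596), on chromosome 9 from 107975505 to 107984060, stood at 6.08 FPKM under the empty vector and 2.71 FPKM under Oct4 and SOX2, from 1299 and 577 reads. It was 2.25-fold lower (2.04 to 2.48) in plain FPKM. Its log2 ratio of FPKM + 1 was -0.93, just short of the 2-fold mark, because the added 1 FPKM weighs on genes of low level.

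Ube2l6, the E2 enzyme that takes ISG15 from UBA7, lies on chromosome 2 from 84798828 to 84810335 (ENSMUSG00000027078). Its level was 78.5 FPKM under the empty vector and 29.1 FPKM under Oct4 and SOX2, from 5000 and 1849 reads, 2.70-fold lower (2.56 to 2.85). Its fold and that of Isg15 differed by a factor of 1.003 (0.930 to 1.08), so the folds of modifier and conjugating enzyme did not differ beyond counting error.

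Herc6, the main ISG15 ligase of the mouse, was the member that differed least. Herc6 (ENSMUSG00000029798), on chromosome 6 from 57581000 to 57664632, had 7.57 FPKM under the empty vector and 4.62 FPKM under Oct4 and SOX2, from 2246 and 1367 reads. It was 1.64-fold lower (1.53 to 1.76). Its log2 ratio of FPKM + 1, -0.61, lay inside the span from -0.66 to 0.68 that holds the middle 90% of measured genes, and the other 4 members lay below that span.

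Usp18, the protease that strips ISG15 from its targets, differed most. Usp18 (ENSMUSG00000030107), on chromosome 6 from 121245906 to 121270917, was at 79.3 FPKM under the empty vector and 24.2 FPKM under Oct4 and SOX2, from 7062 and 2152 reads. It was 3.28-fold lower (3.12 to 3.44), at rank 35 from the bottom of the 12401 measured genes by log2 ratio. Isg15 stood at rank 68 and Ube2l6 at rank 73, with Uba7 at 268 and Herc6 at 740.

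**Figure D2:**
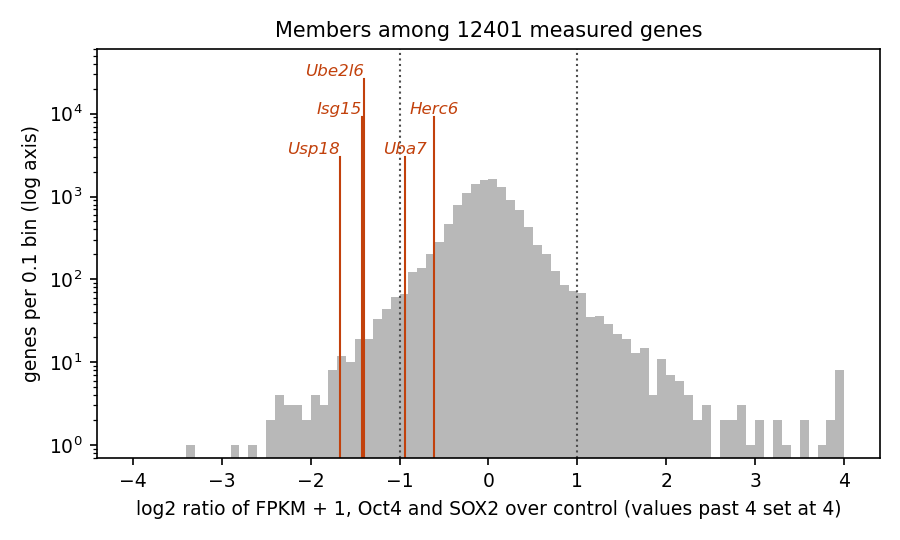
Histogram of log2 ratios (Oct4 and SOX2 over control, on FPKM + 1) for the 12401 measured genes on a log count axis, with the members as vertical lines and dotted lines at 2-fold. Usp18, Isg15 and Ube2l6 lie below the lower dotted line, and Uba7 at -0.93 and Herc6 at -0.61 above it.

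The members differed among themselves by more than counting error. Of the 10 pairs of members, 9 had folds whose ratio had an interval above 1, and Isg15 with Ube2l6 was the pair that did not. Usp18 was lower by 1.22 times the fold of Isg15 (1.13 to 1.31), by 1.46 times that of Uba7 (1.30 to 1.63) and by 1.997 times that of Herc6 (1.84 to 2.17). Thus the protease and the ligase marked the 2 ends, with the modifier, the E2 and the E1 between them. These intervals compare 2 libraries and leave out variation between cultures.

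Levels per length put the members in nearly the same order in both libraries. In the control the order was Isg15, Usp18, Ube2l6, Herc6 and Uba7, and Usp18 and Ube2l6 did not differ beyond counting error (ratio 1.01, 0.974 to 1.05). With Oct4 and SOX2, Ube2l6 was above Usp18 by 1.20 times (1.13 to 1.28). Isg15 exceeded Usp18 by 2.77 times (2.67 to 2.87) in the control library and by 3.37 times (3.16 to 3.58) in the other. It exceeded Ube2l6 by 2.79 and 2.80 times, Herc6 by 28.96 and 17.6 times, and Uba7 by 36.1 and 30.1 times. The lengths behind these levels matter: the table gives Uba7 6692 bases and Herc6 9292, while their principal transcripts have 3195 and 4767. GENCODE lists 10 retained-intron transcripts for Uba7 and 4 for Herc6. Per length of the principal transcript, Isg15 exceeded Uba7 by 17.2 and 14.4 times and Herc6 by 14.9 and 9.05 times. The order then was Isg15, Usp18, Ube2l6, Herc6 and Uba7 in both libraries, and with Oct4 and SOX2 it was Usp18 and Ube2l6 that did not differ (1.03, 0.963 to 1.09). Plain folds between libraries do not depend on the length. Log2 ratios of FPKM + 1 do, because the added 1 FPKM weighs less on a higher level. Per length of the principal transcript Uba7, just short of 2-fold on that scale, was at 12.7 and 5.67 FPKM.

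Some reads could belong to other genes. The Isg15 pseudogene AC151275.1, 95.2% identical over 482 bases, had 0 and 1 reads, and the Ube2l6 pseudogene AC102745.2 had 0 in both. A stretch of 506 bases of the Ube2l6 transcript matches 12 other genes at 90% identity or more, 10 of them with at most 25 reads in either library. The others were D10Wsu102e, with 4707 and 3922 reads over its whole length and a match of 492 bases, and Ift46, with 1541 and 1372 reads and a match of 259 bases. Gm20661 overlaps Uba7 on the same strand and had 4 and 1 reads, Gm44148 overlaps Usp18 on the other strand with 4 and 2 reads, and Gm45193, which shares 1272 bases with Herc6, had 0. The sources used here do not say how reads with several matches were counted.

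The relatives of the members, by the step they carry out, gave 0 genes at least 2-fold lower. Of all measured protein-coding genes 1.07% were at least 2-fold lower and 1.39% at least 2-fold higher. At these shares, lists of this size would hold few such genes in any case. Among 18 other measured ubiquitin-like modifiers 0 were at least 2-fold lower and the lowest, Rps27a, had a log2 ratio of -0.45. Rps27a, a ubiquitin fusion gene, was at 238 and 174 FPKM, and the fold of Isg15 was 1.97 times its fold (1.86 to 2.08). The polyubiquitin gene Ubb stood at 328 and 365 FPKM. Sumo2, a SUMO modifier gene, was the list's 1 member at least 2-fold higher, at 8.30 and 18.4 FPKM, 2.22-fold higher (1.98 to 2.48).

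The other E1 enzymes held 9 measured genes, with a median of -0.08, all above Uba7. Uba1, the main ubiquitin E1, was at 130 and 154 FPKM, 1.18-fold higher (1.16 to 1.21), and Uba6, the second ubiquitin E1, at 13.5 and 15.2 FPKM. The fold of Uba7 was 2.53 times that of Uba6 (2.27 to 2.83). Of the other E2 enzymes, 31 were measured, with a median of -0.01, and 0 passed 2-fold in either direction. Ube2l3, the ubiquitin E2 closest in name to Ube2l6, stood at 20.4 and 18.3 FPKM, 1.11-fold lower (1.06 to 1.17), and the fold of Ube2l6 was 2.42 times as large (2.26 to 2.60). The lowest, Ube2w at -0.68, still lay above Ube2l6.

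Ligases were the exception, through 1 gene. Of the 5 other measured HERC genes and reported ISG15 ligases, with a median of -0.25, only Trim25 lay below the member, Herc6. Trim25, a RING ligase for ubiquitin reported also to act on ISG15 and itself interferon-induced, stood at 60.2 and 33.04 FPKM. It was 1.82-fold lower (1.77 to 1.88), which is more than Herc6: the fold of Herc6 was 0.901 times that of Trim25 (0.836 to 0.971). Arih1, another ligase reported to act on ISG15, was at 32.03 and 26.7 FPKM. Within the HERC family, Herc4 was at 4.92 and 5.67 FPKM, Herc2 at 17.9 and 15.8 FPKM and Herc1 at 5.77 and 4.62 FPKM. Herc3 had 24 and 14 reads and was not measured. The list of other ubiquitin-specific proteases was drawn by gene name, not by activity, and also holds Usp6nl. Of its 43 measured genes 0 passed 2-fold on the FPKM + 1 scale, with a median of 0.01. The lowest log2 ratio was -0.42 for Usp32 and the highest 0.91 for Usp53. In plain FPKM Usp53 did pass 2-fold, at 6.77 and 13.6 FPKM, 2.01-fold higher (1.92 to 2.11). The fold of Usp18 was 2.39 times that of Usp32 (2.23 to 2.57). Of the proteases reported to react with ISG15 besides USP18, 4 were measured, with a median of 0.08. Usp5 was at 45.1 and 47.3 FPKM, Usp14 at 20.5 and 21.98 FPKM and Usp16 at 6.51 and 6.06 FPKM, all close to even. Usp21 was 1.335-fold higher (1.226 to 1.455). Usp2, below 1 FPKM in both libraries, had 132 and 79 reads, 1.67-fold lower (1.25 to 2.23). Usp13 had 0 reads in both libraries.

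**Figure D3:**
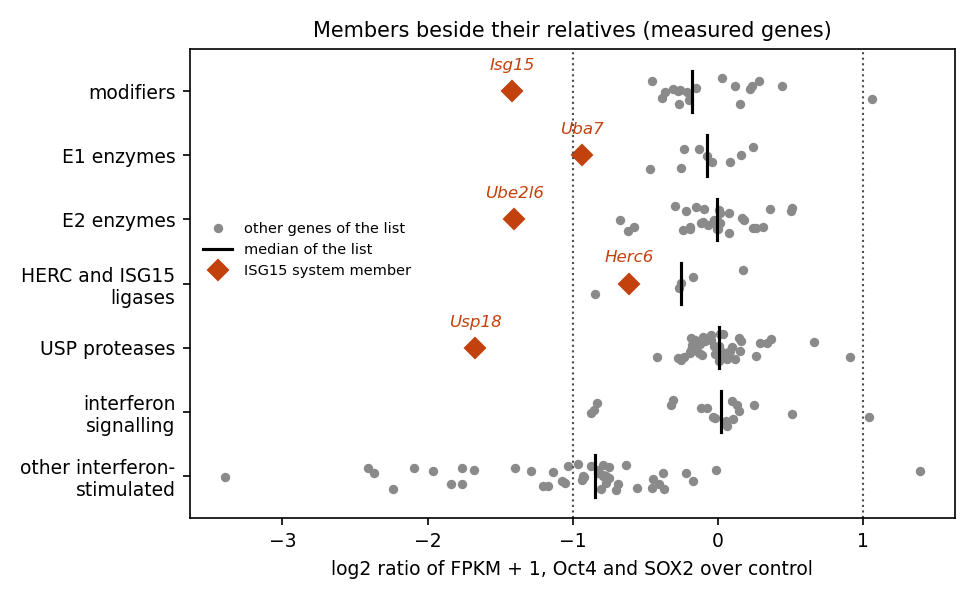
Log2 ratios (Oct4 and SOX2 over control, on FPKM + 1) for each member (diamond), the measured genes of its family (circles) and the family's median (bar), with 2 interferon lists at the bottom and dotted lines at 2-fold. Isg15, Uba7, Ube2l6 and Usp18 lie left of every measured relative, and Herc6 lies right of Trim25 at -0.85.

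The 18 measured genes of interferon signalling and feedback had a median of 0.02. On the FPKM + 1 scale 0 were past 2-fold below the control and 1 past it above, against 1.85% and 2.42% of all measured genes. The receptor genes Ifnar1, at 9.76 and 10.6 FPKM, and Ifnar2, at 5.90 and 5.75 FPKM, were close to even. Factors downstream of the receptor went both ways, and over the whole list 9 genes had a ratio below 0 and 9 above it. Jak1 was at 19.2 and 20.04 FPKM, Tyk2 at 5.45 and 6.13 FPKM and Irf3 at 9.81 and 10.8 FPKM. Stat2, Irf9 and Irf7 were lower. Stat2 was at 42.2 and 23.2 FPKM, 1.82-fold lower (1.75 to 1.89). Irf9, its DNA-binding partner, was at 16.5 and 13.03 FPKM, 1.27-fold lower (1.20 to 1.34). Irf7, which amplifies interferon production, was at 93.6 and 50.7 FPKM, 1.85-fold lower (1.79 to 1.91). Socs3, an inhibitor of cytokine signalling through JAK kinases, was the gene that passed 2-fold, at 5.87 and 13.2 FPKM, 2.24-fold higher. None of 8 interferon genes searched was measured. Ifnb1 had 6 and 4 reads, Ifne 0 and 2, and the other 6 had 0 reads in both, where 3 reads of a transcript of 1 kb would be 0.0940 and 0.0942 FPKM.

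The 46 other interferon-stimulated genes on the list were all measured and had a median of -0.85. A ratio below 0 was seen for 45, of which 18 passed 2-fold, and 1 gene passed it upward. That list was drawn up with earlier results of these data known and is not independent evidence of direction. Isg15, Ube2l6 and Usp18 each had 10 of the 46 genes below them and 36 above, Uba7 had 20 below and Herc6 36 below. Genes well below the members included Ifit3, an antiviral effector gene, 14.4-fold lower (12.1 to 17.3), Rsad2, 6.85-fold lower (6.11 to 7.69), and Ifit1, 5.80-fold lower (5.37 to 6.27). Ifi27 was the gene in the other direction, 2.67-fold higher.

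The response-element core was in the windows of 19 of 36 list genes with one, or 52.8%, and of 3.99% of 27025 genes. Within the list, 9 of the 19 with the core and 6 of the 17 without it were at least 2-fold lower, with medians of -0.96 and -0.83. Across measured protein-coding genes without the members, 21 of 317 with the core were at least 2-fold lower, or 6.62%, against 64 of 7859 without it, or 0.814%. At least 2-fold higher were 1 of the 317 and 110 of the 7859, and the medians with and without the core were -0.09 and -0.01. The lower genes in this comparison still include those of the list, 9 with the core and 6 without it. A match is a description of letters, and binding was not measured.

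On the FPKM + 1 scale the member had a lower ratio than its measured neighbours in each of the 5 places in the genome, but for Herc6 the order turned in plain FPKM, where Ppm1k was 1.77-fold lower (1.55 to 2.03) against 1.64-fold for Herc6 (1.53 to 1.76). Within 100 kb, 24 neighbours were measured, of which 0 were at least 2-fold lower on the FPKM + 1 scale and 14 had a ratio below 0. Of all measured genes 1.85% were at least 2-fold lower and 51.7% had a ratio below 0. The closest genes to Isg15 were lower too. Agrn, the agrin gene, begins 1.94 kb past the end of Isg15 on the same strand and was at 17.3 and 10.6 FPKM, 1.64-fold lower (1.57 to 1.71). AW011738, which starts 2.48 kb before Isg15 on the opposite strand, was at 3.92 and 2.004 FPKM, 1.95-fold lower (1.56 to 2.46). Further out, Perm1 was 1.37-fold lower, Plekhn1 1.28-fold lower and Noc2l, at 54.9 and 50.8 FPKM, 1.08-fold lower. The other 2 measured neighbours of Isg15 were higher: Rnf223 had 34 and 108 reads, a 3.18-fold higher FPKM (2.15 to 4.83), and 9430015G10Rik was 1.11-fold higher (1.02 to 1.20). Inka1, 0.162 kb past the end of Uba7 on the opposite strand, had 45 and 21 reads, 2.14-fold lower (1.25 to 3.78) in plain FPKM, while Traip, 3.23 kb before Uba7, was 1.28-fold higher. Timm10, 16.7 kb past Ube2l6, was at 31.8 and 22.8 FPKM, and Ppm1k, 45.5 kb from Herc6, at 3.24 and 1.82 FPKM. Lancl2, 37.9 kb on the other side of Herc6, was 1.71-fold higher, and Pex26, the measured neighbour of Usp18, stood at 2.10 and 1.999 FPKM. On the FPKM + 1 scale the neighbour at least 2-fold higher was Gm27942 near Ube2l6, from 0 to 4 reads, and Rnf223 fell short of that at a log2 ratio of 0.66.

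**Figure D4:**
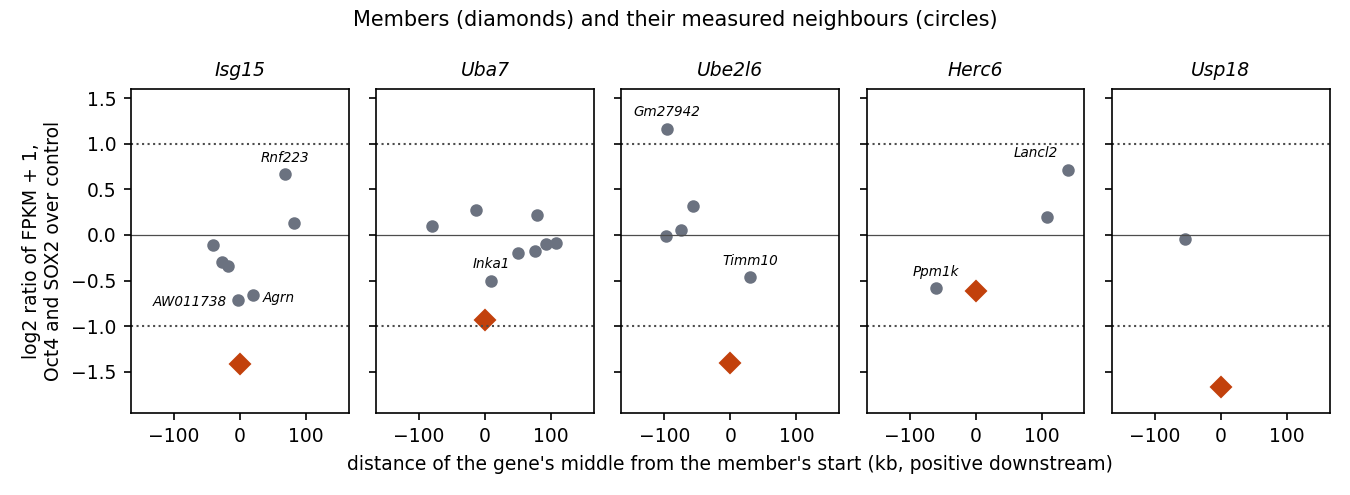
Log2 ratio of FPKM + 1 of each member (diamond) and of its measured neighbours within 100 kb (circles), by distance in kb of the neighbour's middle from the member's start. By this distance AW011738 at -0.71 lies nearest to Isg15, with Perm1 at -0.34 and Agrn at -0.66 further out. On the FPKM + 1 scale the diamond is the lowest point in all 5 panels. Herc6 at -0.61 lies close to Ppm1k at -0.58, which is the lower one in plain FPKM.

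The protein-coding genes nearest to each member in both libraries were found by the distance of the 2 log2 values of FPKM + 1, over 2 libraries. Usp18 was nearest to Oas1g, a gene of an interferon-induced oligoadenylate synthetase, at 77.4 and 22.1 FPKM and a distance of 0.131. Isg15 was nearest to the growth factor gene Csf1 (0.424), Ube2l6 to Aldh1l2 (0.285), Uba7 to Cavin4 (0.073) and Herc6 to Tgfb3 (0.002). The second choices were Aldh1l2 for Usp18, Lonp1 for Isg15, Ddit3 for Ube2l6, Zmym6 for Uba7 and Wdr81 for Herc6. With 2 libraries this says only that their values are alike.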

How the data were processed

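The authors deposited 1 table of FPKM values with gene lengths and positions for 1 library per group. CASAVA, HISAT2 and featureCounts 1.5.0-p3 on GRCm38 are listed per the submitters' processing notes. The sources used here do not give the FPKM formula or the strand and multiple-match settings. Read numbers were recovered because FPKM times length was a multiple of 1 value in each library, within 0.001 of a read for 100% of the entries.

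Differences are log2 ratios of FPKM + 1, which understate low genes, for genes with at least 1 FPKM in a library, counted at 2-fold. No test was possible with 1 library per group. Fold intervals are exact conditional (Clopper-Pearson) at 95%, and ratios of folds use the exact conditional odds ratio. These intervals, and the floor of 3 reads, hold counting error alone, as PCR copies are no independent molecules. The count and interval steps were tested on simulated Poisson reads, which hold no variation between cultures.

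The members and the 13 gene lists were chosen with earlier results of these data known. Named genes are the members, set relatives, neighbours within 100 kb, the 2 genes nearest to each member, and from each list up to 3 at 2-fold or more in each direction or else the 2 most expressed. Other genes were named after their values were seen. Promoter windows are from RefSeq (GRCm38.p6), and exon structure and transcript matches (BLAST 2.17.0, at least 90% over 100 bases) from GENCODE M21. Protein sequences were not analysed here, and a few list genes are not reported here. The software was Python 3.11.15 with scipy 1.17.1, numpy 2.4.6, matplotlib 3.10.9 and pandas 2.3.3. The alternatives are given in the closing section.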

Additional observations from a re-analysis of the deposited data

How the results depend on the processing

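Under the 8 alternatives all 40 member ratios stayed below 0, and 3 members were at least 2-fold lower under each, or 4 with a pseudocount of 0.1 FPKM, where Uba7 reached -1.14. Dropping the filter, raising it to 5 FPKM or keeping protein-coding genes only could not alter a member's ratio. Of the 40 ratios 5 moved beyond the counting interval, all under a changed pseudocount. With a pseudocount of 5 FPKM the members' median was -1.29. Counts of genes at least 2-fold lower and higher were 459 and 520 with a pseudocount of 0.1 FPKM, 56 and 75 with 5 FPKM, 121 and 145 with a filter of 5 FPKM, and 110 and 143 for protein-coding genes only. Chosen after the data were seen, the length of the principal transcript set Isg15 above Uba7 by 17.2 times in the control and 14.4 times with Oct4 and SOX2, above Herc6 by 14.9 and 9.05 times, above Ube2l6 by 2.18 and 2.19 times, and above Usp18 by 1.76 and 2.14 times. These values changed because fewer bases divide the same reads. The log2 ratios of FPKM + 1 and the count of members at least 2-fold lower were not redone with that length. No paired analysis was possible because each group held 1 library. Variation between cultures was not measured, and counting error limits genes of few reads most.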

Other observations

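Below 1 FPKM, outside the measured set, 2 neighbours of the members stood out after their values were seen. Serping1, the gene for the complement C1 inhibitor, lies 23.4 kb from Ube2l6 and went from 66 to 18 reads, 3.66-fold lower (95% counting interval 2.15 to 6.55). Camkv, 25.8 kb before Uba7, went from 39 to 4 reads, 9.73-fold lower (3.51 to 37.5). The octamer letters ATGCAAAT, absent from the members' windows, were in windows of 120 measured protein-coding genes. Of these 5 were at least 2-fold lower (4.17%) and 7 at least 2-fold higher (5.83%), against 0.993% and 1.29% of 8056 genes without them. The medians with and without the letters were -0.0143 and -0.0124. For the STAT site 1.35% were lower and 2.86% higher with it, against 1.01% and 1.22% without it. A link between letters and level was not tested.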
